A study of Mus musculus with 83 samples.

Results

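Hox genes encode the homeodomain transcription factors by which cells along the head-to-tail axis record their position. In the mouse they lie in 4 clusters, Hoxa, Hoxb, Hoxc and Hoxd, and are numbered by paralog group from 1 at the end of a cluster used towards the head to 13 at the end used towards the tail. All symbols made of Hoxa, Hoxb, Hoxc or Hoxd and a number were taken as members. There were 39 among the 22463 genes with a value in brown adipose tissue, and 26 of them were among the 11144 genes listed for cultured brown preadipocytes. The Hoxa cluster on chromosome 6 has 11 members, Hoxb on chromosome 11 has 10, Hoxc on chromosome 15 has 9 and Hoxd on chromosome 2 has 9. Groups 1 to 3 are called anterior here (8 genes), groups 4 to 8 central (15 genes) and groups 9 to 13 posterior (16 genes).

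Fibroblasts and fat precursors keep a pattern of Hox expression that reflects the site they came from, and fat depots of the trunk differ in it. Interscapular brown fat lies between the shoulder blades and descends from the dermomyotome, the part of the somites that also gives rise to back muscle and dermis. Hox proteins bind DNA together with the homeodomain partners of the Pbx and Meis families. Polycomb complexes keep the clusters silent and trithorax proteins keep them active.

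The tissue library was polyadenylated RNA of interscapular brown fat from C57BL/6J mice at 16 weeks. The culture libraries came from brown preadipocytes of newborn Pparg-flox/flox mice (background C57BL/6J), taken from the same depot and immortalized with a retrovirus carrying the SV40 large T antigen. They were made at day -3 from proliferating cells, at day 0 from confluent cells at induction with insulin, T3, IBMX, dexamethasone and indomethacin, at day 2 from immature adipocytes, and at day 7 from mature adipocytes. The tissue is thus a mixture of cell types from adult mice, and all culture days share 1 immortalized population, the floxed alleles and the T antigen. Each condition had 1 library of 5 used in all from the 83 samples of the series, so no spread between replicates is known and no difference below has a replicate check or a test.

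The tissue library held 11 of 13 skeletal muscle markers at or above 1 RPKM (reads per kilobase of transcript, scaled to the mapped reads of the library), summing to 1646 RPKM, with Acta1 at 534 RPKM, Myog at 0.632 RPKM and Myod1 at 0.303 RPKM. All 8 endothelial markers (168 RPKM in sum), all 7 pericyte and smooth muscle markers (204 RPKM), 10 of 12 preadipocyte and fibroblast markers (158 RPKM) and all 10 brown adipocyte markers (11298 RPKM) passed the same level. In culture 2 of the 13 muscle markers were listed, with sums of 1.43 to 7.08 FPKM (the same for fragments) over the 4 days, and 1 of the 8 endothelial markers, with 0.0668 to 1.88 FPKM. All 10 brown adipocyte markers were listed in culture and summed to 62.1, 142, 6969 and 6485 FPKM at days -3, 0, 2 and 7. The list also holds genes of fat cells in general. Among these Fabp4 and Lpl, with 4811 and 1842 FPKM at day 2, made up most of the sum. Cidea, Cox8b, Elovl3 and Cox7a1 had 0, 0.0667, 0.692 and 1.59 FPKM at day 2, and 8.81, 4.38, 1.91 and 132 FPKM at day 7. Of the 10 markers Ucp1, the uncoupling protein that defines brown fat, had 1015 RPKM in the tissue, and 0, 0, 0.0357 and 1.22 FPKM in culture at days -3, 0, 2 and 7. The part of these other cells in the Hox values was not tested. In bulk RNA, fewer cells of a type and less RNA per cell cannot be told apart.

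In brown adipose tissue, Hox RNA at or above 1 RPKM ended at paralog group 8. None of the 16 posterior genes reached 1 RPKM, against 10 of 15 central and 4 of 8 anterior genes, 14 of 39 in all, where 47.1% of all tissue genes reached that level. Among the posterior genes 12 of 16 were listed at 0 RPKM, as were 2 of the 8 anterior genes and none of the 15 central ones, against 33.9% of all tissue genes. All 15 central genes and 5 anterior ones lay above 0.561 RPKM, the value of 3 reads on a transcript of 1 kb, and no posterior gene did. The medians were 1.34 RPKM for anterior, 2.30 RPKM for central and 0 RPKM for posterior genes, and 0.694 RPKM for all genes. In sum the 39 genes came to 70.2 RPKM, of which 17.8% was anterior, 81.0% central and 1.18% posterior.

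The step at the end of the central groups lies between neighbouring genes. On Hoxa it fell between Hoxa7, with 2.30 RPKM, and Hoxa9, with 0.0823 RPKM, which for the length of that gene is at most 1 read. On Hoxd it fell between Hoxd8, with 7.75 RPKM, and Hoxd9, with 0.534 RPKM, at most 6 reads. On Hoxc it fell between Hoxc8, with 1.74 RPKM, and Hoxc9, listed at 0, and no promoter was matched for either. On Hoxb no gene pair crossed 1 RPKM there, as Hoxb8 had 0.707 RPKM and Hoxb9 0.139 RPKM. The 250 bases before the start of the 4 Hoxa and Hoxd genes are shown because they flank the steps on those clusters. They are given 5′ to 3′ on the strand of the gene, from RefSeq on GRCm38.p6 (the deposited values were made on mm9), with each CG dinucleotide in capitals. The stretches are chr6:52218574-52218823, minus strand, for Hoxa7; chr6:52227371-52227620, minus strand, for Hoxa9; chr2:74704365-74704614, plus strand, for Hoxd8; and chr2:74697513-74697762, plus strand, for Hoxd9.
Hoxa7: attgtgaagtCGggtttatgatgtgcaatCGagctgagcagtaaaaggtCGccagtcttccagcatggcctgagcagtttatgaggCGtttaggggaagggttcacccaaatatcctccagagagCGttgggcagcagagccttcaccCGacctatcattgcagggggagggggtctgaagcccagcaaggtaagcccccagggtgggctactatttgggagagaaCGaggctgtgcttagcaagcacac
Hoxa9: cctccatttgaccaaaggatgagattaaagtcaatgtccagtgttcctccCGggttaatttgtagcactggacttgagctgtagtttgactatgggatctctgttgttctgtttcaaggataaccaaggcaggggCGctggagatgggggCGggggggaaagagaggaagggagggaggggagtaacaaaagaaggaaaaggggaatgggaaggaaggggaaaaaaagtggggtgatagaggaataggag
Hoxd8: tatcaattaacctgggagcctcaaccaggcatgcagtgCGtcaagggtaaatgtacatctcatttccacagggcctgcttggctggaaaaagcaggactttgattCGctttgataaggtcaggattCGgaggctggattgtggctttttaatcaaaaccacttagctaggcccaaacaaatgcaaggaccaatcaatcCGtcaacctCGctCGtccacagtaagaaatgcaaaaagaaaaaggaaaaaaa
Hoxd9: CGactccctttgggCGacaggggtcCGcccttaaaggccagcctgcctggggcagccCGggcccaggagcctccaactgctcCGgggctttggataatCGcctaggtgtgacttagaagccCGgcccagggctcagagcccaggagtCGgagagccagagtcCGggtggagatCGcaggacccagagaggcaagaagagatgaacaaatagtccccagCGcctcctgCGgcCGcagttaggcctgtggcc
They hold 7 CG dinucleotides for Hoxa7, 3 for Hoxa9, 6 for Hoxd8 and 13 for Hoxd9, so the gene past the step had fewer than its neighbour on Hoxa and more on Hoxd.

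CG dinucleotides mark the CpG islands that Polycomb and trithorax proteins occupy, and the Hox clusters are rich in them. RefSeq promoters were matched for 22 of the 39 genes, 24 stretches of 250 bases, with a median of 12.5 CG against 6 in all 32851 promoters. Most of these stretches are of Hoxa and Hoxd genes, few of Hoxb, and of Hoxc only Hoxc4. Hoxa10 and Hoxd11 count more than once. The values below thus describe mainly Hoxa and Hoxd. At least 10 CG were found in 62.5% of the Hox stretches and in 37.8% of all. The 7 stretches of genes at or above 1 RPKM in the tissue had a median of 8 CG, and the 17 of genes below 1 RPKM a median of 13. All posterior stretches are among the 17, so level and position cannot be told apart here. On either strand the Meis-type motif TGACAG stood in 2 of 24 Hox stretches (8.33%) against 15.9% of all, and the Pbx-Hox motif TGATNNAT in 4 of 24 (16.7%) against 7.68% of all. Neither motif stood in the 4 stretches shown. These matches are descriptions of letters in a window.

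Within the tissue the Hoxa cluster carried 48.5% of the summed Hox level, Hoxc 22.6%, Hoxb 15.5% and Hoxd 13.4%. On Hoxa 5 of 11 genes reached 1 RPKM, with the values climbing along the cluster from Hoxa2 to Hoxa5 and dropping after it. Hoxa2, which sets the identity of the second branchial arch, had 1.78 RPKM, and Hoxa3, needed for thymus and parathyroid, had 5.37 RPKM. Hoxa4 had 8.56 RPKM and Hoxa5, which patterns the lower neck and upper thorax, had 14.2 RPKM, the top value of all 39. Hoxa6 had 0.802 RPKM, and Hoxa10, Hoxa11 and Hoxa13, genes of the limb and urogenital tract, were listed at 0.

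On Hoxb 4 of 10 genes reached 1 RPKM, and the values ran from 0 to 3.06 RPKM. Hoxb1, a hindbrain gene, was listed at 0 RPKM. Hoxb2 had 2.07 RPKM, Hoxb3 2.20 RPKM and Hoxb4, known for expanding blood stem cells when forced, 3.06 RPKM. Hoxb6 had 1.27 RPKM, and Hoxb5, Hoxb7 and Hoxb8 had 0.690, 0.737 and 0.707 RPKM. Hoxb9 had 0.139 RPKM, at most 3 reads, and Hoxb13, a prostate gene, was listed at 0.

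On Hoxc all 4 central genes reached 1 RPKM and none of the 5 posterior genes did. Hoxc6, a gene of the thoracic level, had 5.52 RPKM, Hoxc4 had 4.81, Hoxc5 had 3.77 and Hoxc8 had 1.74 RPKM. Hoxc9, Hoxc10, Hoxc11 and Hoxc12 were listed at 0, and Hoxc13, known for its role in hair and nail, had 0.0768 RPKM, at most 3 reads. On Hoxd 1 of 9 genes reached 1 RPKM. That gene, Hoxd8, stood at 7.75 RPKM, above every Hoxb and Hoxc gene, while Hoxd4 had 0.950 RPKM, Hoxd3 had 0.193 RPKM, and Hoxd1, Hoxd10, Hoxd11, Hoxd12 and Hoxd13 were listed at 0. Hoxd13 is known for patterning the digits.

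Genes of 1 paralog group were not alike in level. In group 5 the tissue had 14.2 RPKM of Hoxa5, 3.77 RPKM of Hoxc5 and 0.690 RPKM of Hoxb5. In group 8 it had 7.75 RPKM of Hoxd8, 1.74 RPKM of Hoxc8 and 0.707 RPKM of Hoxb8. In group 4 the 4 genes lay closer, with 8.56 RPKM of Hoxa4, 4.81 RPKM of Hoxc4, 3.06 RPKM of Hoxb4 and 0.950 RPKM of Hoxd4. In the reference 20 of the 39 Hox genes overlap the span of another gene, Hoxa3 for one overlapping Hoxa4, Hoxa5 and Hoxa6, Hoxb3 overlapping Hoxb4 and Hoxd3 overlapping Hoxd4. The sources used here do not say whether the libraries or the counting kept strand, so reads of overlapping genes may have been shared. Among the 19 genes with no overlap 4 reached 1 RPKM, 1 of 3 anterior, 3 of 5 central and 0 of 11 posterior genes. Most of the 19 are posterior, so their share at 1 RPKM cannot be set against that of all 39 genes to judge overlap.

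**Figure D1:**
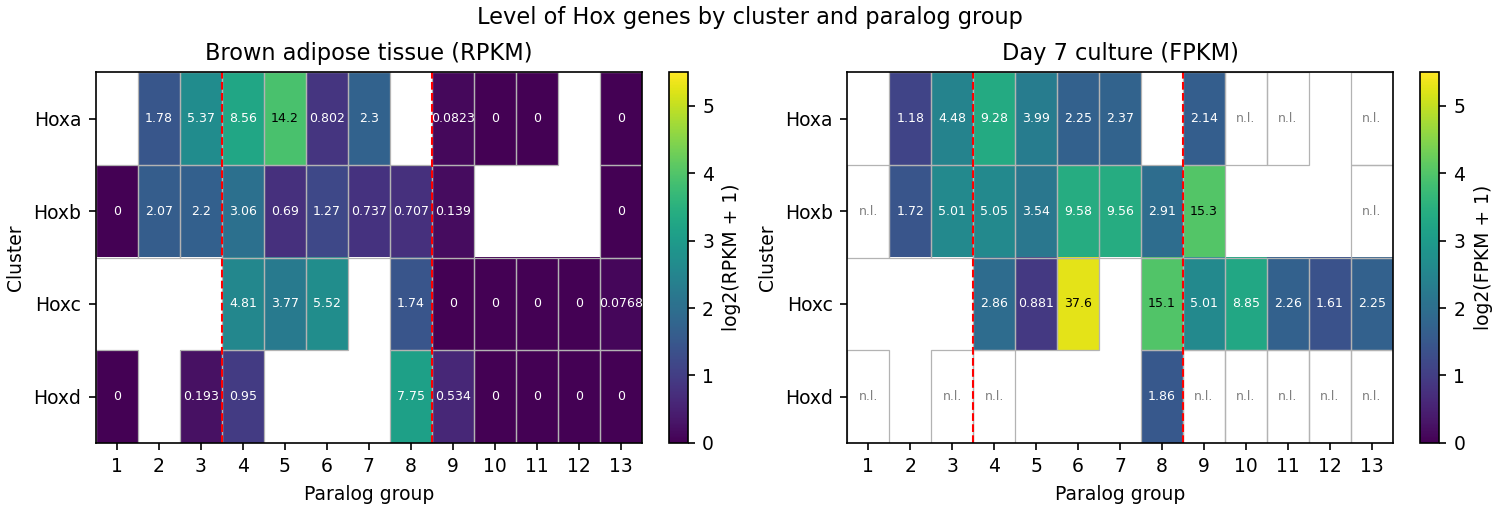
Level of the Hox genes in brown adipose tissue (left, RPKM) and in the day 7 culture (right, FPKM), with clusters down the page and paralog groups across. Colour is log2(value + 1), numbers are the values, n.l. marks genes not listed in culture, blank fields have no gene or none reported here, and red dashed lines bound the central groups. In the tissue the fields beyond group 8 stay below 0.6, while at day 7 Hoxb9 and Hoxc9 to Hoxc13 hold values from 1.61 to 15.3.

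The map of levels by cluster and group shows that the culture did not share that boundary. In culture the listed genes numbered 8 of 11 on Hoxa, 8 of 10 on Hoxb, all 9 on Hoxc and 1 of 9 on Hoxd. Posterior genes were listed for 7 of 16, and all 7 were below 1 RPKM in the tissue. Listing as such is common: 49% of all tissue genes, 84.7% of those at or above 1 RPKM and 17.2% of those below it were listed. Of the 12 posterior genes at 0 RPKM in the tissue 4 were listed in culture (33.3%), where 4.46% of all tissue genes at 0 were. All 4 were neighbours on Hoxc, Hoxc9 to Hoxc12, and no posterior gene at 0 on the other clusters was listed. The 14 Hox genes at or above 1 RPKM in the tissue were all listed. The genes not listed were Hoxa10, Hoxa11, Hoxa13, Hoxb1, Hoxb13, Hoxd1, Hoxd3, Hoxd4, Hoxd9, Hoxd10, Hoxd11, Hoxd12 and Hoxd13. A gene not listed cannot be read as low, since listed genes all had a value above 1 in at least 1 day and the sources used here do not say why genes are absent.

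The culture library with the highest summed Hox level was day 0. Over the 26 listed genes the sum was 213, 247, 167 and 159 FPKM at days -3, 0, 2 and 7. Posterior genes made up 39.0, 31.2, 20.3 and 23.6% of it on those days, central genes 54.2, 63.7, 74.2 and 67.3%, and anterior genes 6.83, 5.17, 5.49 and 9.08%. In the tissue the same 26 genes summed to 68.6 RPKM, 0.434% posterior, 81.6% central and 18.0% anterior. The 7 posterior genes among these 26 are in the set through their culture values alone, so the size of this gap is a description of the set; over all 39 genes the tissue share was 1.18%, as given above. By cluster, Hoxa made up 5.34, 4.12, 7.50 and 17.5% of the culture sum at days -3, 0, 2 and 7, Hoxb 45.3, 39.4, 29.0 and 33.2%, and Hoxc 48.6, 56.0, 62.0 and 48.2%. In the tissue the shares of these 26 were 49.7% Hoxa, 15.9% Hoxb, 23.2% Hoxc and 11.3% Hoxd.

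**Figure D2:**
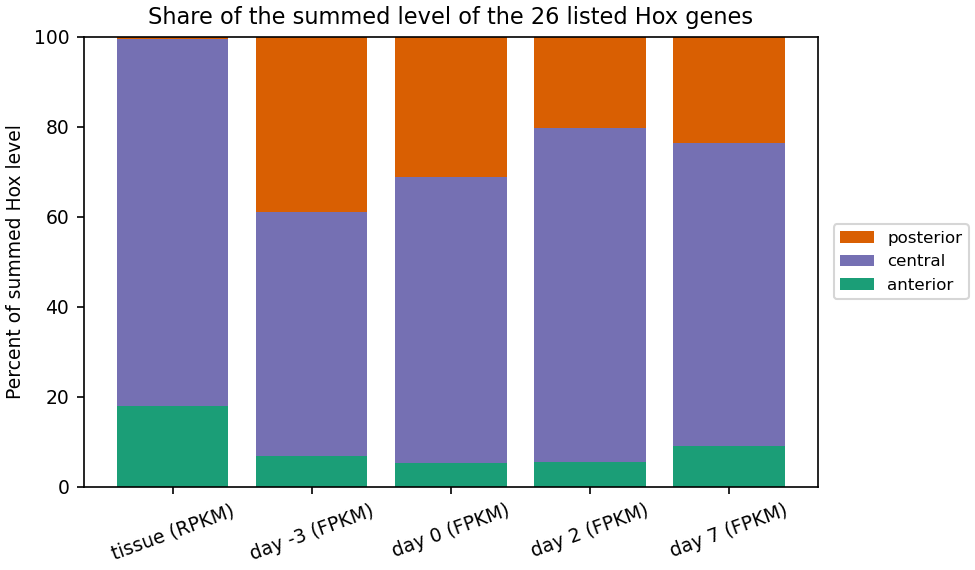
Share of the summed level of the 26 Hox genes listed in culture that came from anterior (groups 1 to 3), central (4 to 8) and posterior (9 to 13) genes, in percent, for the tissue (RPKM) and each culture day (FPKM), 1 library each. Posterior genes take 0.434% of the tissue bar and 20.3 to 39.0% of the culture bars.

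The bars of shares rest on few genes. Hoxc6 alone had 38.8, 64.7, 54.5 and 37.6 FPKM at days -3, 0, 2 and 7, the top Hox value on every day except day -3. On day -3 the top gene was Hoxb9, a gene of the thoracic skeleton and mammary gland, which had 46.3, 36.9, 11.1 and 15.3 FPKM over the 4 days. Hoxc8, known to restrain brown fat genes in white fat precursors, had 16.6, 17.2, 17.0 and 15.1 FPKM, and Hoxb6 had 16.1, 18.1, 11.7 and 9.58 FPKM. At the low end Hoxa2 stayed between 0.859 and 1.18 FPKM, and Hoxb2 between 1.38 and 2.15 FPKM.

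Differences between culture days were counted when log2(FPKM + 1) differed by at least 1, which is 2-fold on that scale, and the larger value was at least 1 FPKM. This scale understates differences of low genes. At day 0 against day -3 none of the 24 Hox genes compared passed in either direction, where 11.3% of all genes (1201) were higher and 5.43% (576) lower; the Hox median was 0.19 and the median of all genes 0.06. With each library rescaled to the same total of FPKM, 1566 of all genes were higher and 380 lower, and no Hox gene passed either way. At day 2 against day 0 no Hox gene of 23 was higher and 2 were lower, where 6.18% of all genes were higher and 10.7% lower; the Hox median was -0.50 and that of all genes -0.01. At day 7 against day 2, 2 of 26 were higher and 1 lower, where 9.62% of all genes were higher and 5.14% lower; the medians were 0.09 and 0.02. Over the whole course, day 7 against day -3, 3 of 26 were higher and 6 lower, where 20.3% of all genes were higher and 14.7% lower, with medians of -0.13 for Hox and 0.07 for all genes. The fold between the highest and the lowest day had a median of 2.33 over the 26 Hox genes and of 2.19 over all genes.

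At day 2 against day 0, as the cells entered differentiation, 2 of 23 Hox genes passed the size rule, both downwards, where 10.7% of all genes were lower. The sign of the difference, whatever its size, was below 0 for 18 of the 23 compared and for 5458 of 10717 among all genes, for all 9 Hoxc genes (8 of 9 under either rescaling of the libraries), for 7 of 8 Hoxb genes and for 2 of 5 Hoxa genes. Most of these differences did not pass the rule. The posterior genes compared were all below 0, 6 of 6. Of these 5 are Hoxc genes, and the central Hoxc genes were below 0 as well, so position and cluster cannot be told apart for them. Hoxa9, the posterior gene left out by the limit of 1 FPKM, differed by 0.37. The 2 genes past the size rule were Hoxb9 and Hoxc10, both posterior. Hoxb9 had 11.1 FPKM at day 2 against 36.9 at day 0 (log2 difference -1.64). Hoxc10, known as a gene of subcutaneous white fat that restrains browning, had 6.99 FPKM at day 2 against 17.0 at day 0 (-1.17). Hoxc5 and Hoxb8 (-0.94), both central, stayed just short of the limit. With a pseudocount of 0.1 they passed it, so the position of the genes called depends on that setting. Hoxa4 went the other way, with 3.28 FPKM at day 2 against 1.21 at day 0 (0.95).

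**Figure D3:**
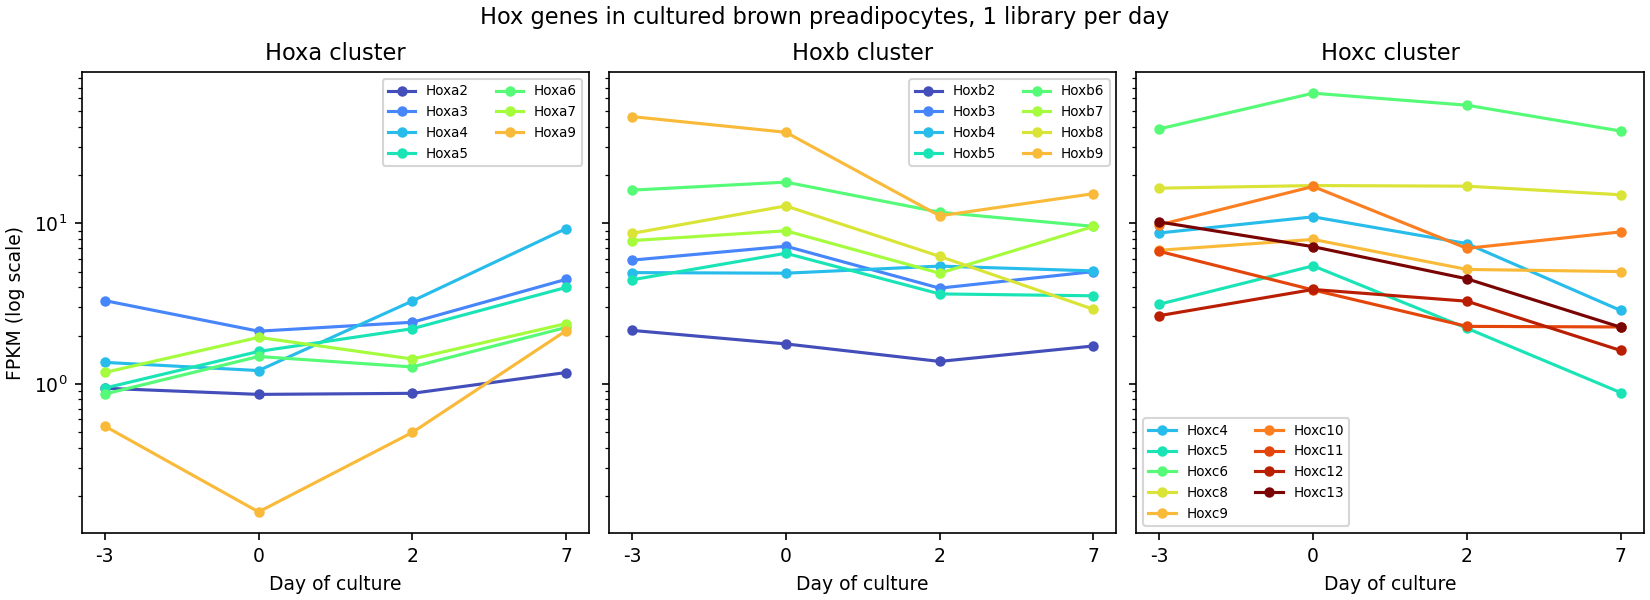
FPKM (log axis) of listed Hoxa, Hoxb and Hoxc genes at days -3, 0, 2 and 7, 1 library per day, points joined for each gene and coloured by paralog group. The Hoxa lines all end above their day 2 values, while 8 of 9 Hoxc lines end below theirs.

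The lines by day show the clusters one by one. On Hoxa the sign was above 0 for 8 of 8 genes at day 7 against day 2 and for 5480 of 10666 among all genes. Of the 8, 2 passed the size rule, as did 9.62% of all genes upwards. At day 7 against day -3 the sign was above 0 for 7 of 8 and for 5695 of 10828 among all genes. The Hoxa median for the whole course was 0.72, and 3 genes passed the size rule upwards, as did 20.3% of all genes. Hoxa4 had 1.36, 1.21, 3.28 and 9.28 FPKM at days -3, 0, 2 and 7, a log2 difference of 2.12 between day 7 and day -3. Hoxa5 had 0.940, 1.59, 2.20 and 3.99 FPKM (1.36), so both were at their top on day 7. Hoxa9, which acts with Meis1 in leukaemia, had 0.545, 0.159, 0.498 and 2.14 FPKM (1.03), 13.5-fold between its lowest and highest day; it lay just past the limit and fell short of it, at 0.99, when the libraries were divided by median-ratio factors. Hoxa4 and Hoxa5 lie within the span of Hoxa3, so of these 3 only Hoxa9 overlaps no other gene. The neighbours Hoxa6 and Hoxa7 had 2.25 and 2.37 FPKM at day 7, against 0.863 and 1.18 FPKM at day -3 (0.80 and 0.63).

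Hoxa2 and Hoxa3, at the anterior end, differed less over the whole course than Hoxa4 and Hoxa5. Hoxa3 had 3.30, 2.13, 2.42 and 4.48 FPKM at days -3, 0, 2 and 7. Hoxa2 was flatter, 1.37-fold between its lowest and highest day.

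On Hoxc the sign at day 7 against day -3 was below 0 for 9 of 9 genes (7 of 9 with the libraries rescaled to the same total of FPKM) and for 5133 of 10828 among all genes. The Hoxc median was -0.49, and 4 of the 9 genes passed the size rule downwards, as did 14.7% of all genes. Hoxc13 had 10.2, 7.15, 4.51 and 2.25 FPKM over the 4 days (-1.78), lower on each later day. Hoxc4 had 8.71, 11.0, 7.48 and 2.86 FPKM (-1.33), Hoxc5 had 3.13, 5.43, 2.22 and 0.881 FPKM (-1.14), and Hoxc11 had 6.69, 3.84, 2.28 and 2.26 FPKM (-1.24). Hoxc6 and Hoxc8, between these pairs on the chromosome, differed by -0.04 and -0.13 at day 7 against day -3. Hoxc9 had 6.80, 7.94, 5.16 and 5.01 FPKM, Hoxc10 had 9.79, 17.0, 6.99 and 8.85 FPKM, and Hoxc12 had 2.66, 3.87, 3.27 and 1.61 FPKM.

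On Hoxb the median over the whole course was -0.24. Against 20.3% of all genes higher and 14.7% lower, none of the 8 Hoxb genes was higher and 2 were lower. These were Hoxb9 (-1.54) and Hoxb8 (-1.30), which holds myeloid precursors in self-renewal when forced and had 8.66, 12.8, 6.23 and 2.91 FPKM. Hoxb7, between Hoxb8 and Hoxb6 on the chromosome, had 7.81, 8.99, 4.89 and 9.56 FPKM (0.26). Hoxb4 had 4.93, 4.89, 5.41 and 5.05 FPKM, 1.11-fold between its lowest and highest day, the flattest of the 26. Hoxb3 had 5.90, 7.20, 3.95 and 5.01 FPKM, and Hoxb5 had 4.45, 6.51, 3.63 and 3.54 FPKM. Hoxd8, the listed gene of the Hoxd cluster, had 1.65, 1.08, 2.46 and 1.86 FPKM (0.11).

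**Figure D4:**
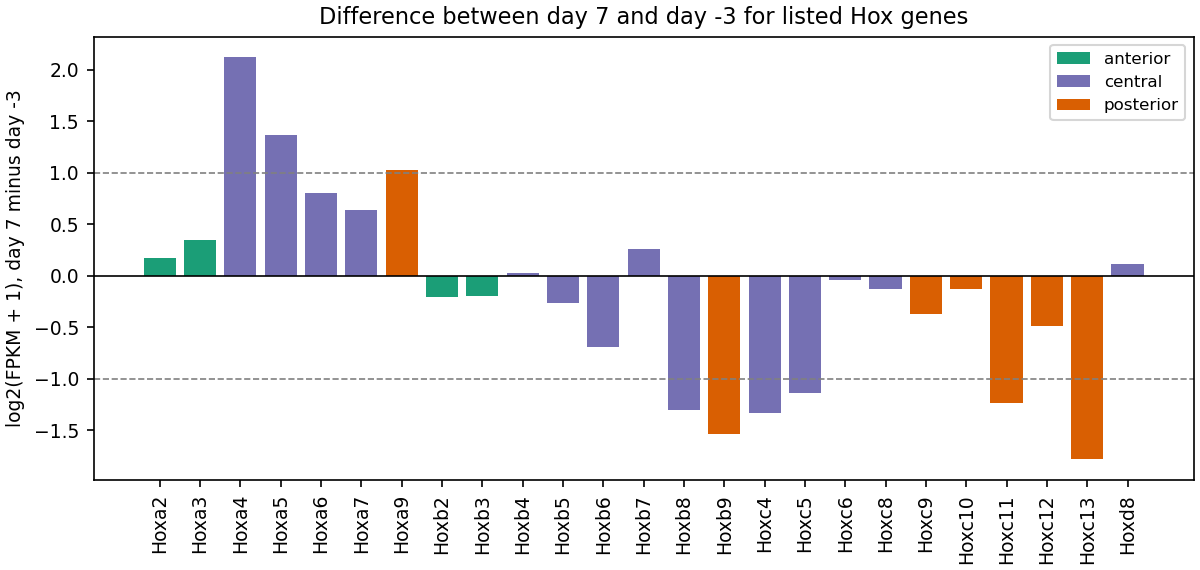
Difference of log2(FPKM + 1) at day 7 minus day -3 for the listed Hox genes reported here, in cluster order, coloured by position class, with dashed lines at 1 and -1. Bars past the upper line are Hoxa4, Hoxa5 and Hoxa9, and bars past the lower line are Hoxb8, Hoxb9, Hoxc4, Hoxc5, Hoxc11 and Hoxc13.

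By position, the whole-course bars held calls in both directions among posterior and central genes. Among all genes 20.3% were higher and 14.7% lower at this step, and the classes below hold few genes each. Among posterior genes 1 of 7 was higher and 3 lower (median -0.49). Among central genes 2 of 14 were higher and 3 lower (median -0.01), and none of the 5 anterior genes passed either way (median -0.09). The one posterior gene that was higher, Hoxa9, is the one on Hoxa. In the same interval the brown adipocyte markers, general fat cell genes among them, were higher for 10 of 10. Preadipocyte markers were higher for 4 and lower for 4 of 11. The part of both lists in the Hox differences was not tested. Rescaling each library to the same total of FPKM put the median of all genes at 0.25 for day 0 against day -3 and at 0.20 for day 7 against day -3, with the Hox medians at 0.37 and -0.0036. It left the counts of Hox genes higher and lower as they were at each step, while the median of the central genes at day 7 against day -3 became 0.12.

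Because the tissue RPKM and the culture FPKM come from different counting, tissue and day 7 were set side by side by percentile rank, from 0 for the lowest to 100 for the highest, among the 10461 genes that reached 1 in the tissue or at day 7. Within this set the Hox genes had a median rank of 20.04 in the tissue and 13.5 at day 7. Single genes stood far higher, Hoxa5 at 78.8 in the tissue and Hoxc6 at 79.7 at day 7. The set holds only genes that were listed in culture and reached 1. Over all tissue genes the medians were alike, 0.690 RPKM for the 39 Hox genes and 0.694 RPKM for all 22463. A rank difference of 20 points or more was counted. Of 26 Hox genes 7 ranked higher in the tissue, where 14.5% of all genes did, and 5 ranked lower, where 14.4% of all genes did. The median difference was 1.06 points for Hox and 0.134 for all genes. Spearman's rho between the libraries, given as a description across genes, was 0.074 over the 26 Hox genes and 0.679 over all ranked genes. The 7 posterior genes among the 26 entered the ranking through their day 7 value, and most Hox genes lie low in both libraries. The gap between the values of rho thus partly reflects the choice and range of genes, and no conclusion is drawn from it.

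Those ranked higher in the tissue were all anterior or central. This was set beforehand, since no posterior gene ranked above 3.48 in the tissue and none could be 20 points higher there. Hoxa5 ranked at 78.8 in the tissue against 16.7 at day 7, and Hoxd8 at 63.0 against 7.00. The differences of Hoxc5, Hoxc4, Hoxa3, Hoxa4 and Hoxa2 were 39.6, 36.7, 33.1, 31.1 and 20.2 points, and Hoxb2, at 19.5, fell just short. Those ranked lower in the tissue were Hoxb9, at 3.48 in the tissue against 51.5 at day 7, Hoxc10, at 0.913 against 33.9, Hoxc8, at 22.5 against 51.0, Hoxc6, at 52.6 against 79.7, and Hoxb7, at 11.4 against 36.1. Hoxc9 fell just short, with a difference of -19.7. The Hoxa genes had a median difference of 19.4 points, Hoxb of -2.54 and Hoxc of -8.20.

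By position the median difference was 19.5 points for the 5 anterior genes, all 5 above 0, and 8.79 points for the 14 central genes. For the 7 posterior genes it was -8.20 points, all 7 below 0, with a range of -48.0 to -4.73. All 7 were below 1 RPKM in the tissue and entered the ranking through their day 7 value, so the sign of their differences was largely set by the choice of genes ranked. In group 9 the day 7 culture had 15.3 FPKM of Hoxb9, 5.01 FPKM of Hoxc9 and 2.14 FPKM of Hoxa9. Muscle and endothelial marker levels, as given above, differ between the same libraries, and their part in these ranks was not tested.

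**Figure D5:**
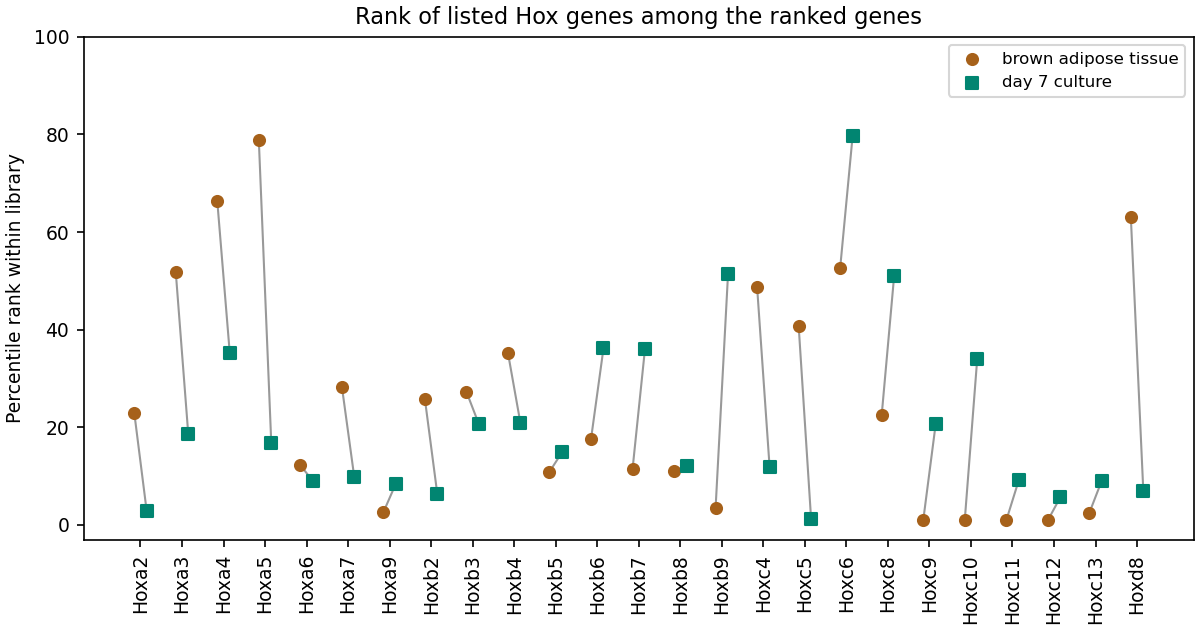
Percentile rank of the listed Hox genes reported here among 10461 genes, in brown adipose tissue (circles) and in the day 7 culture (squares), joined for each gene. Hoxa5 and Hoxd8 show long lines with the tissue on top, and Hoxb9 and Hoxc10 long lines with the culture on top.

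The plot of ranks joins both values of a gene, and the genes flanking the clusters give a frame for it. Beside Hoxa, Skap2 had 14.7 RPKM and Hibadh 169 RPKM in the tissue, while Evx1, a homeobox gene at the posterior end, had 0.0650 RPKM. Beside Hoxd, Mtx2 had 39.8 RPKM and Lnp 2.37 RPKM, and Evx2, at the posterior end, was listed at 0. Skap1 and Ttll6 near Hoxb were listed at 0 RPKM, and near Hoxc Calcoco1 had 19.8, Cbx5 6.69, Smug1 2.17 and Hnrnpa1 0.975 RPKM. Of the 8 flanking genes ranked none was higher in the tissue by 20 points and 1, Cbx5, was lower, against 14.5% and 14.4% of all genes. At day 7 against day -3, 3 of 8 passed the size rule upwards (Calcoco1 3.15, Skap2 1.67 and Hibadh 1.58) and 1 downwards (Hnrnpa1 -1.42). Of all genes 20.3% passed it upwards and 14.7% downwards. Of the noncoding genes in the clusters 9 had a tissue value, none at or above 1 RPKM; Hoxaas3 had 0.448 and Hoxd3os1 0.235 RPKM, and Hoxa11os and the 6 microRNA genes (Mir10a, Mir10b, Mir196a-1, Mir196a-2, Mir196b and Mir615) were listed at 0, as were 90.5% of all 601 microRNA genes in this library.

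Most Hox partners were found in tissue and culture. Of 9 Pbx, Meis and Pknox genes 6 reached 1 RPKM in the tissue, where 47.1% of all genes did. Among them were Pbx2 (10.8 RPKM), Meis2 (2.43), Pknox1 (1.86), Meis1 (1.79) and Pbx3 (1.41). Pknox2 had 0.327, Meis3 0.315 and Pbx4 0 RPKM. At day 7 against day -3 none of 8 was higher and 2 were lower, where 20.3% of all genes were higher and 14.7% lower. Among those lower was Meis3 with 1.43 FPKM at day 7 against 7.33 FPKM at day -3 (-1.78). Pbx2 differed by 0.95, Meis2 by 0.17, Pbx4 by 0.10, Pbx3 by -0.48, Meis1 by -0.75 and Pknox2 by -0.96. In rank none of 8 was higher in the tissue and 2 were lower, among them Meis2 (-24.0 points), against 14.5% and 14.4% of all genes.

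Genes that control the switching on of Hox clusters in the embryo reached 1 RPKM in the tissue for 4 of 13, against 47.1% of all genes. These were the retinoic acid receptors Rarg (4.73 RPKM), Rarb (3.71) and Rara (1.67) and Aldh1a1, which makes retinoic acid (3.31). The Cdx genes and Cyp26c1 were listed at 0, Cyp26b1 had 0.676, Gdf11 0.310, Aldh1a3 0.220, Aldh1a2 0.165 and Cyp26a1 0.105 RPKM. Over the whole course Aldh1a1 was higher (4.66 FPKM at day 7 against 0.460 at day -3, 1.95), with 22.1 FPKM at day 2. Gdf11, a signal for posterior Hox activation, was lower (1.60 against 13.1 FPKM, -2.44). The other 5 of 7 compared passed neither limit, where 20.3% of all genes were higher and 14.7% lower.

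Polycomb genes reached 1 RPKM for 25 of 28 in the tissue, against 47.1% of all genes, led by Rbbp7 (16.4 RPKM), Rbbp4 (12.5) and Suz12 (11.6). At day 7 against day -3, 6 of 27 were higher, among them Jarid2 (3.27) and Ezh1 (2.04), and 3 lower, Phc2 (-2.33), Scmh1 (-1.44) and Pcgf3 (-1.41). Among all genes 20.3% were higher and 14.7% lower. In rank none of 27 was higher in the tissue and 8 were lower, against 14.5% and 14.4% of all genes. A list of trithorax genes and other chromatin regulators, not all of them activators, reached 1 RPKM for 9 of 10 in the tissue. The highest were Ctcf (9.19 RPKM), Kdm6b (6.98) and Wdr5 (6.38), and 47.1% of all tissue genes reached that level. Over the whole course 1 of 11 on this list, Ash2l (-1.06), was lower and none was higher. In rank 4 of 10 were lower in the tissue, Psip1 (-53.4 points), Kdm2b (-48.4), Men1 (-31.3) and Kdm6a (-22.6), and none was higher.

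Other developmental regulators that mark body position, homeobox, T-box and forkhead genes among them, were set beside the Hox genes. Of 49 such genes 13 reached 1 RPKM in the tissue, where 47.1% of all genes did. Among them were Tcf15 (8.23 RPKM) and Meox2 (7.48), which are genes of somite derivatives. Neither was listed in culture, and which cells of the tissue held their RNA was not tested. Of 25 ranked 3 were higher in the tissue, among them Tbx3 (27.9 points) and Meox1 (21.9), against 14.5% of all genes. Lower were 8, led by Foxc1 (-46.9), Prrx1 (-45.9) and Tbx15 (-40.8), against 14.4% of all genes. At day 7 against day -3, 2 of 25 were higher, Foxc1 (1.38) and Lhx2 (1.02), where 20.3% of all genes were. A further 5 were lower, led by Foxc2 (-3.45), Prrx2 (-2.37) and Emx2 (-1.44), where 14.7% of all genes were. En1, a marker of the dermomyotome precursors of brown fat, had 0.439 RPKM in the tissue, and 11.6, 9.94, 8.88 and 3.66 FPKM in culture at days -3, 0, 2 and 7.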

How the data were processed

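RNA of 5 libraries was used: interscapular brown adipose tissue and cultured brown preadipocytes at days -3, 0, 2 and 7, with 1 library per condition, grouped by title. The other samples of the series (ChIP, FAIRE and input libraries) were not analysed here. The culture values are FPKM per gene symbol, as the authors deposited them; every listed gene has a value above 1 in at least 1 day. The tissue values are RPKM per RefSeq transcript, as the authors deposited them. The submitters' processing notes name TopHat2 2.0.10, Cufflinks 1.0.3, CASAVA 1.8.2 and SICER, and build mm9; their roles are not given in the sources used here. Per the labels' protocols, mRNA was purified from total RNA.

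Transcripts were matched to symbols in a RefSeq table of GRCm38.p6 (97.8% of 29082 matched 1 symbol), used for names, neighbours, spans and promoters, and each gene took its highest transcript. Culture depth is unknown. In the tissue 1 read on 1 kb was worth 0.187 RPKM, since 31 of 31 chemosensory receptor transcripts came out whole within 0.01 of a read; such floors cover counting error only. Read limits of single Hox genes used gene spans and are upper bounds. Differences are of log2(value + 1), with size rules and no test. The members and lists were chosen with earlier results of these data known. Named were the Hox genes, the members of lists of 16 or fewer, and in longer lists the 3 largest differences each way and the 3 highest tissue values; a few were left as counts, and some genes are not reported here. Alternatives changed the pseudocount, filter, scaling, transcript choice, thresholds and class limits. Python 3.11.15, pandas 2.3.3, numpy 2.4.6, scipy 1.17.1 and matplotlib 3.10.9 were used.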

Additional observations from a re-analysis of the deposited data

How the results depend on the processing

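Of the counts by culture day, tissue level and rank, 72 recomputed under an alternative stayed within 1.5 times and 23 moved; of the values of single genes and medians 517 stayed, 11 passed a limit they had missed, 11 missed one they had passed and 5 medians moved. No difference past the size rule changed sign; some small ones, well short of it, did under rescaling. With a pseudocount of 0.1, 1 Hox gene was lower at day 0 against day -3; at day 2 against day 0, 2 were higher and 4 lower; at day 7 against day 2, 3 were lower. With a pseudocount of 5, 1 was lower at day 2 against day 0, 0 were higher and 0 lower at day 7 against day 2, and 1 was higher and 2 lower at day 7 against day -3. Dividing by median-ratio factors put Hoxa9 at 0.99 at day 7 against day -3, below the limit. At a tissue threshold of 0.5 RPKM, 1 posterior, 7 Hoxb and 3 Hoxd genes passed. With groups 1 to 5 as anterior, 9 anterior genes passed. Keeping only genes that overlap no other gene, an alternative added after seeing the data, left 4 genes at or above 1 RPKM in the tissue (1 anterior and 3 central; 2 Hoxa, 0 Hoxb, 2 Hoxc and 0 Hoxd); in culture it left 1 higher and 0 lower at day 7 against day 2, and 1 higher at day 7 against day -3. These counts fall partly because fewer genes are kept, and in the tissue 11 of the 19 kept are posterior. Other causes were not tested. No paired analysis was possible because each condition had 1 library, and no replicate could be left out for the same reason.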
